A study of Equus caballus with 15 samples.

Results

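Macrophages activated with IL-1ß and treated with PRP lysate were compared with IL-1ß activated macrophages treated with MSC conditioned medium (MSC-CM). The comparison took 3 libraries with PRP lysate and 3 with MSC-CM out of the 15 libraries of the series, assigned to their groups by the labels, and 11628 of the 16932 listed genes, those whose CPM averaged 1 or more across the 15. CPM is the number of reads on a gene after all libraries are scaled to the same total. The cells were equine monocyte-derived macrophages, grown from peripheral blood mononuclear cells of horses over 5 days with human M-CSF at 30 ng/ml. Both groups received IL-1ß at 10 ng/ml, and in both an orthobiologic therapy (OT) made up 25% of the medium for 24 h. The remaining libraries held 3 each of macrophages with IL-1ß and autologous conditioned serum (ACS), with IL-1ß alone and without treatment, and all 15 libraries set the filter on low genes and the shared estimate of the spread. The 3 libraries with IL-1ß alone and the 3 untreated ones are described as technical replicates by the study.

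PRP lysate is plasma enriched in platelets, prepared from blood with a double syringe and frozen, so that it carries platelet granule content and plasma proteins. MSC-CM is the supernatant of bone marrow mesenchymal stromal cells expanded in a growth medium with fetal bovine serum, so that it carries what these cells secreted and that medium. Per the study's methods the same 3 horses, 2 to 5 years old, gave the blood and marrow for both products, and other horses of 3 and 5 years gave the blood for the macrophages. No label of the 6 libraries names a horse. Plasma or growth medium without these products was not analysed here. The methods give a further 24 h of culture after the OT was washed off, whereas the sample descriptions place the collection directly after the wash.

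Macrophages take up and degrade debris, dying cells and hemoglobin through scavenger receptors such as CD163, CD36 and MERTK, and they recruit other leukocytes with chemokines. CXC chemokines of the CXCL8 kind attract neutrophils, whereas CCL17 and CCL22 attract T cells that carry CCR4. Cells short of amino acids or with misfolded proteins in the endoplasmic reticulum (ER) switch on ATF4 target genes and ER chaperones. The growth factor M-CSF, acting through CSF1R, keeps macrophages alive and maintains their state.

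The 6 libraries held 28410733 to 44155362 reads on genes, so that 1 CPM stood for 28.4 reads in the shallowest. PRP lysate replicate 1 stood apart from the other 5 libraries. On the first principal component of the 6, which carried 53.9% of the variance of log2(CPM + 1), it lay at -65.3 and the others between -9.75 and 23.8. The second component, with 32.8%, held the PRP lysate libraries between -31.7 and -4.13 and the MSC-CM libraries between 16.5 and 26.2. Genes of long span were also low in PRP lysate replicate 1, with a slope of log2(CPM + 1) on the natural log of gene span of -0.0844 against 0.101 and 0.117 in its group. The slopes with MSC-CM were 0.000562, 0.1004 and 0.0991. The mean Euclidean distance between libraries of different groups exceeded that within groups by 14.6 log2 units (exact permutation test over 10 arrangements, one-sided p = 0.1, the smallest possible here). Without PRP lysate replicate 1 the excess was 23.0 log2 units, and without MSC-CM replicate 3 it was 4.46 log2 units (exact permutation p = 0.3).

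With PRP lysate 93 genes were higher and 211 lower than with MSC-CM (limma on log2(CPM + 1), Benjamini-Hochberg adjusted p of at most 0.05 and at least a 2-fold difference). This was 2.61% of the genes tested, 0.8% higher and 1.81% lower. Log2 fold changes below are PRP lysate minus MSC-CM, and their median over all genes tested was -0.09, with 62.4% of genes below 0. In all 304 called genes the 3 PRP lysate libraries lay apart from the 3 MSC-CM libraries, which was so for 19.4% of the genes tested (7.24% higher and 12.1% lower). The larger differences were mostly falls, with 60 genes at least 4-fold lower and 17 at least 4-fold higher. PRP lysate replicate 1 had the lowest of its group's values in 127 of the 211 lower genes, and MSC-CM replicate 3 the highest of its group in 137. When PRP lysate replicate 1 was left out, 154 genes were called higher and 244 lower, and 82 and 169 of the called genes kept their call. Without MSC-CM replicate 3 the counts were 49 and 122. With the 6 libraries alone, unpaired and without the other 9 for the spread, they were 55 and 112. With the replicate numbers as a block on the same 6, 90 of the higher and 202 of the lower genes kept their call. Where a call is said below to be lost under an alternative, DESeq2 and edgeR stand for these tools on reads recovered from the CPM, and RLE and TMM for other scalings between libraries. The replicates of PRP lysate, MSC-CM and ACS stand for products of different donors, whereas those with IL-1ß alone and untreated are technical replicates per the study. The p-values measure only the spread pooled over all these libraries, and thus not the spread between donors alone.

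**Figure D1:**
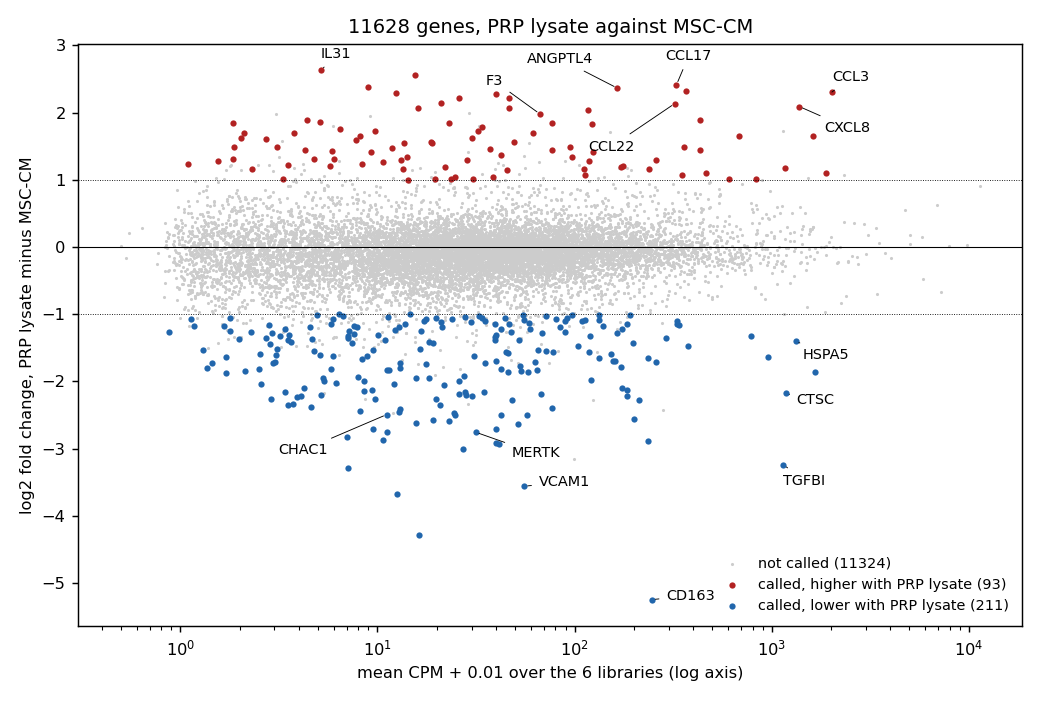
Log2 fold change (PRP lysate minus MSC-CM) of 11628 genes against their mean CPM over the 6 libraries, plotted as CPM + 0.01 on a log axis. Red points are the 93 genes higher with PRP lysate, blue points the 211 lower genes, grey points the others, and dotted lines mark a 2-fold difference. CD163 lies lowest at -5.25, whereas no called gene exceeded 3 on the other side.

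On the log2(CPM + 1) scale the largest difference was that of CD163, the receptor by which macrophages take up haptoglobin-hemoglobin complexes (chromosome 6, 35896420 to 35918134 on EquCab3.0). CD163 was at 7.34, 13.3 and 13.4 CPM with PRP lysate and 411, 322 and 709.8 CPM with MSC-CM, 42.4-fold lower by the means (log2 fold change -5.25, SE 0.39, adjusted p = 1.9e-05). By the means ENSECAG00000017042, given further on, differed more (50.6-fold lower), and so it did with DESeq2 (log2 fold change -5.55, CD163 -5.34) and edgeR (-5.56 and -5.36). Every PRP lysate library of CD163 lay far below every MSC-CM library. Its neighbour CD163L1, a scavenger receptor of the same family (chromosome 6, 35823740 to 35878437), was at 1.72, 1.36 and 1.87 CPM with PRP lysate and 19.1, 11.03 and 28.8 CPM with MSC-CM (log2 fold change -2.87, SE 0.38, adjusted p = 0.00093). MERTK, a receptor for dying cells, was at 7.44, 9.35 and 5.56 CPM with PRP lysate and 47.9, 55.8 and 62.8 CPM with MSC-CM (log2 fold change -2.76, SE 0.21, adjusted p = 2.3e-05). CD36, which takes up oxidized lipids, was at 20.9, 77.2 and 58.1 CPM with PRP lysate and 135, 163 and 275 CPM with MSC-CM (log2 fold change -1.98, SE 0.45, adjusted p = 0.024). The highest PRP lysate value of CD36 was thus below the lowest MSC-CM value, with PRP lysate replicate 1 well below the rest. Of 18 scavenger and efferocytosis receptors tested, 3 were lower, namely CD163, MERTK and CD36, and CD163L1 is not on this list. The integrin subunit ITGB5, which binds vitronectin, was the 1 higher member, at 316, 378 and 290.0 CPM with PRP lysate and 174, 158 and 112 CPM with MSC-CM (log2 fold change 1.16, SE 0.17, adjusted p = 0.0016). The median of the list was -0.45. STAB1, a receptor for many ligands, was at 2.53, 11.4 and 17.1 CPM with PRP lysate and 38.7, 18.2 and 41.6 CPM with MSC-CM and was not called (adjusted p = 0.087). CD36 lost its call without MSC-CM replicates 2 or 3 (adjusted p 0.061 to 0.14, over all alternatives 0.00012 to 0.14), and with the 6 libraries alone and without both first replicates. ITGB5 lost its call without MSC-CM replicate 3 (log2 fold change 0.97).

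Iron handling showed the same direction in the genes called. STEAP3, a metalloreductase of the endosome, was at 4.46, 11.8 and 14.5 CPM with PRP lysate and 44.0, 38.8 and 53.0 CPM with MSC-CM (log2 fold change -2.16, SE 0.37, adjusted p = 0.0045). ACO1, a cytosolic aconitase that binds iron responsive RNA elements, was at 94.5 to 129.6 CPM with PRP lysate and 217 to 316 CPM with MSC-CM (log2 fold change -1.15, SE 0.17, adjusted p = 0.0019). With CD163 these were the 3 called of 20 genes tested of heme and iron handling, whose median was -0.35. Among genes of cholesterol efflux and liver X receptors, 3 of 17 were lower. Besides CD36 these were the lipid exporter ABCG1, at 12.04, 21.7 and 22.2 CPM with PRP lysate and 59.0, 62.9 and 76.5 CPM with MSC-CM (log2 fold change -1.81, SE 0.31, adjusted p = 0.0041), and the phospholipid transfer protein PLTP, at 27.6, 32.3 and 48.1 CPM with PRP lysate and 102, 80.5 and 138 CPM with MSC-CM (log2 fold change -1.55, SE 0.31, adjusted p = 0.012). Both fell below their MSC-CM range in all PRP lysate libraries. The cholesterol exporter ABCA1 was at 4.30, 34.2 and 31.1 CPM with PRP lysate and 88.5, 192 and 248 CPM with MSC-CM, apart between the groups but not called (log2 fold change -3.16, adjusted p = 0.11, with the replicate block 0.0011, over all alternatives 5.0e-05 to 0.37). Without PRP lysate replicate 1 the log2 fold change of ABCA1 was -2.27. The list's median of -0.14 lay close to that of all genes. ACO1 lost its call without MSC-CM replicate 3 (log2 fold change -0.99). PLTP lost its call without PRP lysate replicate 2 or MSC-CM replicate 3 (adjusted p 0.051 to 0.079, over all alternatives 0.00015 to 0.088), and without both first replicates.

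The lysosomal protease CTSC, which activates granule proteases, was at 473, 409 and 392 CPM with PRP lysate and 2115, 1651 and 2035 CPM with MSC-CM (log2 fold change -2.18, SE 0.14, adjusted p = 8.1e-06). It was the 1 called of 50 lysosome genes tested, a share of 2% beside 2.61% of all genes, and their median was -0.14. TGFBI, a secreted matrix protein induced by TGF-ß, was at 108, 236 and 361 CPM with PRP lysate and 2663, 1395 and 2125 CPM with MSC-CM (log2 fold change -3.24, SE 0.40, adjusted p = 0.00057), below all MSC-CM libraries by a wide margin. ACVRL1, a receptor of the TGF-ß family, was at 3.09, 8.27 and 7.07 CPM with PRP lysate and 36.2, 35.0 and 48.8 CPM with MSC-CM (log2 fold change -2.59, SE 0.27, adjusted p = 0.00023). The collagen chain COL4A2 was at 0 to 1.72 CPM with PRP lysate and 3.58 to 4.96 CPM with MSC-CM (log2 fold change -1.59, SE 0.33, adjusted p = 0.014). SMAD6, an inhibitor of the pathway of these receptors, was higher instead, at 12.8, 15.8 and 17.5 CPM with PRP lysate and 5.75, 7.30 and 4.56 CPM with MSC-CM (log2 fold change 1.26, SE 0.24, adjusted p = 0.0078). Of 31 TGF-ß response genes these 4 were called, 3 lower and 1 higher, with a median of -0.14 that changed sign under 1 alternative. COL4A2 lost its call without MSC-CM replicates 2 or 3 (adjusted p 0.062 to 0.063, over all alternatives 0.00039 to 0.17), and with edgeR, with a pseudocount of 0.1, with the 6 libraries alone and without both first replicates. SMAD6 lost its call without MSC-CM replicate 3 (adjusted p 0.054, over all alternatives 2.4e-07 to 0.054).

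Among the 12 largest falls on the log2(CPM + 1) scale were also VCAM1, an adhesion molecule for leukocytes, VCAN, the matrix proteoglycan versican, NRP1, a co-receptor of VEGF and semaphorins, and MILR1, an immunoglobulin-like receptor. VCAM1 was at 2.20, 16.2 and 10.4 CPM with PRP lysate and 119, 80.5 and 105 CPM with MSC-CM (log2 fold change -3.56, SE 0.56, adjusted p = 0.0027). VCAN was at 18.8, 72.1 and 95.4 CPM with PRP lysate and 334, 269 and 619.9 CPM with MSC-CM (log2 fold change -2.88, SE 0.71, adjusted p = 0.037). NRP1 was at 2.23, 13.7 and 15.1 CPM with PRP lysate and 58.2, 59.9 and 90.6 CPM with MSC-CM (log2 fold change -2.92, SE 0.61, adjusted p = 0.015). In all of these PRP lysate replicate 1 was the lowest library, and without it the log2 fold changes were -2.85, -2.19 and -2.17 in that order. MILR1 was at 0, 2.46 and 0.880 CPM with PRP lysate, thus without a read in replicate 1, against 8.10 to 18.4 CPM with MSC-CM (log2 fold change -2.82, SE 0.43, adjusted p = 0.0022). VCAN lost its call without PRP lysate replicates 1 or 2 or MSC-CM replicates 1, 2 or 3 (adjusted p 0.066 to 0.18, over all alternatives 9.4e-05 to 0.18), and without the filter, with the 6 libraries alone and without both first replicates. NRP1 lost its call without MSC-CM replicate 3 (adjusted p 0.087, over all alternatives 1.6e-05 to 0.087), and with the 6 libraries alone and without both first replicates.

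**Figure D2:**
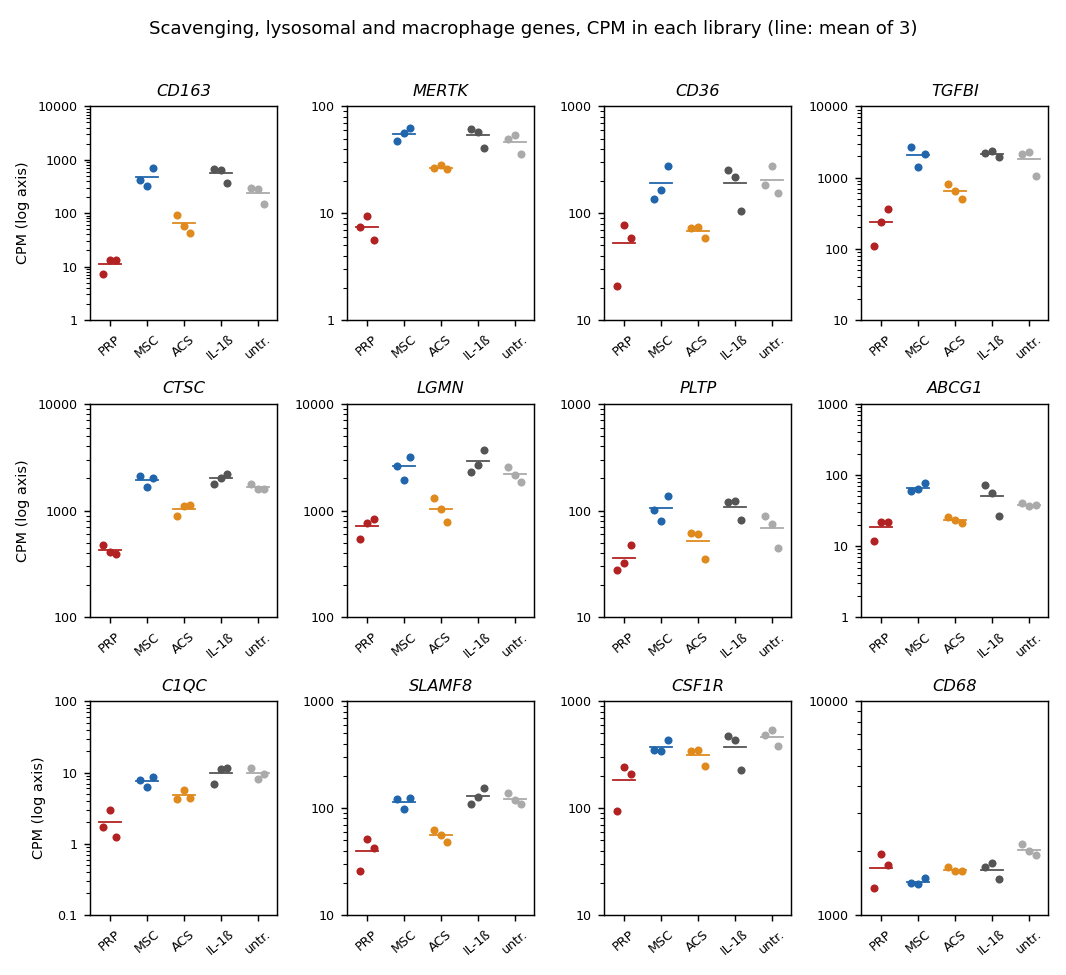
CPM on log axes in every library of the 5 conditions for 12 genes of scavenging, lysosomes and the macrophage state, with 1 point per library and a line at the mean of 3. Untreated macrophages are marked untr., and all other conditions had IL-1ß. In 10 of the panels the PRP lysate points lie below all MSC-CM points by a called difference, whereas CSF1R was not called and CD68 overlapped.

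Of 11 genes that mark macrophages as a class, 9 had a log2 fold change below 0, against 62.4% of all genes. Of the 11, 5 were lower in every PRP lysate library than in any MSC-CM library, against 12.1% of all genes, and 1 was called. Their median was -0.52. CSF1R, the M-CSF receptor, was at 94.3, 244 and 207 CPM with PRP lysate and 350.4, 341 and 431 CPM with MSC-CM and was not called (log2 fold change -1.14, SE 0.33, adjusted p = 0.083), but passed with the replicate block (adjusted p = 0.029, over all alternatives 0.0021 to 0.3). CD68 was at 1339.7 to 1929 CPM with PRP lysate and 1393 to 1489 CPM with MSC-CM (log2 fold change 0.20, SE 0.13, adjusted p = 0.58), and the transcription factor SPI1 at 368 to 526 CPM with PRP lysate and 447 to 572 CPM with MSC-CM (log2 fold change -0.17, SE 0.17, adjusted p = 0.81). The groups overlapped for both. AIF1, a calcium binding protein of macrophages, was the called one, at 8.63, 9.56 and 9.86 CPM with PRP lysate and 21.7, 14.8 and 23.6 CPM with MSC-CM (log2 fold change -1.0002, SE 0.21, adjusted p = 0.015), and its call was lost without MSC-CM replicates 1 or 3 (adjusted p 0.069 to 0.097, over all alternatives 0.0011 to 0.11) and, by size, without PRP lysate replicate 1 (log2 fold change -0.95), and with RLE, with TMM, with the 6 libraries alone, with weights per library and without both first replicates. LYZ, a lysozyme, was at 1.13 to 2.90 CPM with PRP lysate and 3.81 to 9.83 CPM with MSC-CM (adjusted p = 0.076, with the replicate block 0.011, over all alternatives 0.0035 to 0.26), and MRC1, the mannose receptor, at 515 to 2074 CPM with PRP lysate and 2099 to 2503 CPM with MSC-CM (adjusted p = 0.4). The summed macrophage markers came to 3132 to 5218 CPM with PRP lysate, lowest in replicate 1, and to 5049 to 5962 CPM with MSC-CM. In bulk RNA, fewer cells of a type and less RNA per cell cannot be told apart, and the part of these levels in the differences above was not tested.

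Complement genes had the lowest median of the 30 gene lists. It was -1.03 (-1.13 to -0.69 over the alternatives) over 15 genes tested, 14 of them below 0, against 62.4% of all genes. The 4 called (26.7%, against 2.61% of all genes) were all lower. C1QC, a chain of the recognition molecule C1q, was at 1.72, 3.01 and 1.23 CPM with PRP lysate and 7.81, 6.33 and 8.52 CPM with MSC-CM (log2 fold change -1.55, SE 0.25, adjusted p = 0.003). The linked proteases C1R and C1S, which C1q activates, lie within 1 stretch of chromosome 6 (35532300 to 35564856). C1R was at 17.9, 27.9 and 18.1 CPM with PRP lysate and 51.3, 46.0 and 74.6 CPM with MSC-CM (log2 fold change -1.39, SE 0.21, adjusted p = 0.0021), and C1S at 7.52, 11.7 and 9.15 CPM with PRP lysate and 21.4, 21.7 and 28.2 CPM with MSC-CM (log2 fold change -1.25, SE 0.18, adjusted p = 0.0016). Neither gene overlapped between the groups. CFP, or properdin, which stabilizes the alternative pathway convertase, was at 94.3, 118 and 98.9 CPM with PRP lysate and 298, 180.0 and 259.9 CPM with MSC-CM (log2 fold change -1.21, SE 0.24, adjusted p = 0.011). C1QB, another chain of C1q, was at 0.739 to 2.47 CPM with PRP lysate and 3.32 to 6.32 CPM with MSC-CM without a call (adjusted p = 0.11). C1R lost its call with the 6 libraries alone (adjusted p over all alternatives 4.0e-06 to 0.053). CFP lost its call without MSC-CM replicates 1 or 3 (adjusted p 0.059 to 0.063, over all alternatives 0.0001 to 0.1), and with RLE and without both first replicates.

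By count, the ATF4 response to a lack of amino acids held more lower genes than any other list. By share, SLAM family receptors (36.4%) and complement (26.7%) held more. Of the 34 ATF4 genes tested, 8 (23.5%) were lower and 0 higher, where 1.81% of all genes were lower. Their median was -0.60 (-0.68 to -0.51 over the alternatives). CHAC1, which degrades glutathione, was at 4.76, 1.004 and 3.06 CPM with PRP lysate and 20.4, 17.6 and 20.01 CPM with MSC-CM (log2 fold change -2.49, SE 0.40, adjusted p = 0.003). GPT2, an alanine transaminase, was at 0.537, 1.004 and 2.32 CPM with PRP lysate and 7.70, 10.1 and 9.29 CPM with MSC-CM (log2 fold change -2.20, SE 0.25, adjusted p = 0.00038). For both, the highest PRP lysate library stayed far below the lowest MSC-CM library. NUPR1, a stress induced chromatin factor, was at 6.48, 5.07 and 5.03 CPM with PRP lysate and 25.0, 14.4 and 38.1 CPM with MSC-CM (log2 fold change -1.95, SE 0.33, adjusted p = 0.004). The serine synthesis enzyme PSAT1 was at 17.8, 19.2 and 35.2 CPM with PRP lysate and 70.4, 78.5 and 96.0 CPM with MSC-CM (log2 fold change -1.78, SE 0.35, adjusted p = 0.011). The remaining called members were DDIT4, an inhibitor of mTORC1, at -1.62 ± 0.18 (SE, adjusted p = 0.00029) on the log2 scale, the pseudokinase TRIB3 at -1.58 ± 0.19 (SE, adjusted p = 0.00045), the glycine transporter SLC6A9 at -1.32 ± 0.29 (SE, adjusted p = 0.02), and the asparagine synthetase ASNS at -1.28 ± 0.28 (SE, adjusted p = 0.018). PSAT1 lost its call without MSC-CM replicate 3 (adjusted p 0.066, over all alternatives 1.1e-05 to 0.066), and without both first replicates. SLC6A9 lost its call without PRP lysate replicates 2 or 3 or MSC-CM replicates 2 or 3 (adjusted p 0.057 to 0.093, over all alternatives 2.1e-05 to 0.093), and without both first replicates. ASNS lost its call without PRP lysate replicate 2 or MSC-CM replicates 2 or 3 (adjusted p 0.058 to 0.1, over all alternatives 0.00016 to 0.1), and with the 6 libraries alone and without both first replicates.

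All 29 ER chaperone and folding genes tested had a log2 fold change below 0, against 62.4% of all genes. Of the 29, 4 (13.8%) were called, against 2.61% of all genes. Their median was -0.62, and -0.70 to -0.47 over the alternatives. HSPA5, the main HSP70 chaperone of the ER, was at 718, 679 and 760.0 CPM with PRP lysate and 1803, 1584 and 2391 CPM with MSC-CM (log2 fold change -1.3998, SE 0.21, adjusted p = 0.0022). HERPUD1, a member of the ER degradation machinery, was at 127, 89.1 and 104 CPM with PRP lysate and 265, 252 and 355 CPM with MSC-CM (log2 fold change -1.44, SE 0.19, adjusted p = 0.00097). HYOU1, a second chaperone of the HSP70 kind, was at 203 to 213 CPM with PRP lysate and 424 to 541 CPM with MSC-CM (log2 fold change -1.16, SE 0.18, adjusted p = 0.0022), a narrow range in either group. CRELD2, a resident protein of the ER, was at 81.4, 38.3 and 38.4 CPM with PRP lysate and 117, 90.4 and 138 CPM with MSC-CM (log2 fold change -1.18, SE 0.26, adjusted p = 0.019), with PRP lysate replicate 1 nearest to MSC-CM. The call of CRELD2 was lost without PRP lysate replicates 2 or 3 or MSC-CM replicates 1 or 3 (adjusted p 0.069 to 0.11, over all alternatives 4.0e-06 to 0.14), and with edgeR, with RLE, with TMM and with the 6 libraries alone.

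**Figure D3:**
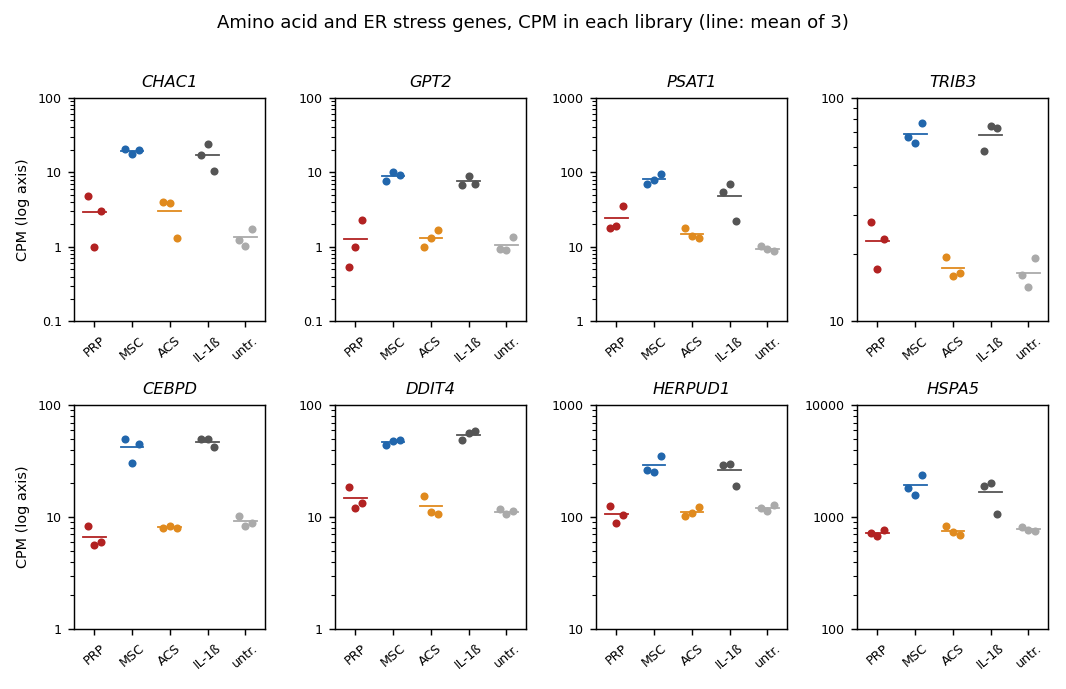
CPM on log axes in every library of the 5 conditions for 8 genes, with 1 point per library and a line at the mean of 3. They are genes of the amino acid and ER stress responses and CEBPD, which is on neither list and was picked after its values were seen. Untreated macrophages are marked untr., and all other conditions had IL-1ß. In every panel the PRP lysate, ACS and untreated points lie below the MSC-CM points, and the points with IL-1ß alone lie near those of MSC-CM, except that its replicate 3 is lower for CHAC1, PSAT1, HERPUD1 and HSPA5.

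The genes higher with PRP lysate held 8 chemokines with a symbol in the files. All 4 neutrophil-attracting CXC chemokines tested were higher, with a median of 1.98. They lie side by side on chromosome 3, 63470014 to 63720939. CXCL8, or interleukin 8, was at 907, 2874 and 3058 CPM with PRP lysate and 395, 402 and 645 CPM with MSC-CM (log2 fold change 2.09, SE 0.39, adjusted p = 0.0076). CXCL1 was at 1829, 3061 and 2505 CPM with PRP lysate and 729, 724 and 858 CPM with MSC-CM (log2 fold change 1.65, SE 0.26, adjusted p = 0.0027). CXCL6 was at 258, 960.2 and 882 CPM with PRP lysate and 167, 126 and 199.8 CPM with MSC-CM (log2 fold change 1.89, SE 0.43, adjusted p = 0.024). For CXCL8 and CXCL6, replicates 2 and 3 with PRP lysate were several times above replicate 1, which itself lay above all MSC-CM libraries. PPBP, the platelet basic protein that is cut to the chemokine CXCL7, was at 10.7, 39.1 and 31.8 CPM with PRP lysate and 5.41, 4.14 and 5.36 CPM with MSC-CM (log2 fold change 2.06, SE 0.40, adjusted p = 0.01). Without PRP lysate replicate 1 the log2 fold changes of CXCL8, CXCL6 and PPBP were 2.66, 2.50 and 2.61. CXCL8 lost its call with the 6 libraries alone (adjusted p over all alternatives 8.0e-08 to 0.085). CXCL6 lost its call without PRP lysate replicates 2 or 3 or MSC-CM replicates 1, 2 or 3 (adjusted p 0.063 to 0.11, over all alternatives 9.5e-06 to 0.13), and with the 6 libraries alone and with the gene span trend removed. PPBP lost its call without PRP lysate replicate 3 (adjusted p 0.051, over all alternatives 1.2e-06 to 0.078), and with the 6 libraries alone. Reads of these related genes may have been divided between them in the counting.

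Of 10 CC chemokines tested, 4 were higher and 1 lower. CCL17 and CCL22, both ligands of CCR4, lie within 1 stretch of chromosome 3 (10308740 to 10357681) with ENSECAG00000031387 between them (10321313 to 10332373), which has no symbol in the files and which the study's text gives beside the name CX3CL1, a membrane bound chemokine. It was at 31.3, 19.1 and 13.9 CPM with PRP lysate and 2.65, 4.81 and 2.81 CPM with MSC-CM (log2 fold change 2.30, SE 0.35, adjusted p = 0.0023), and its call held under all alternatives. CCL17 was at 906, 400.4 and 373 CPM with PRP lysate and 113, 106 and 72.7 CPM with MSC-CM, 5.75-fold higher by the means (log2 fold change 2.41, SE 0.46, adjusted p = 0.0085). CCL22 was at 558, 551 and 460.5 CPM with PRP lysate and 117, 157 and 89.0 CPM with MSC-CM (log2 fold change 2.14, SE 0.29, adjusted p = 0.00097). CCL3, or MIP-1α, which recruits monocytes and T cells, was at 3216, 3489 and 3358 CPM with PRP lysate and 846, 694 and 528 CPM with MSC-CM (log2 fold change 2.31, SE 0.21, adjusted p = 8.1e-05), with little spread among the PRP lysate libraries. For CCL17, CCL22 and CCL3 every PRP lysate library lay far above the MSC-CM libraries. CCL5, or RANTES, was at 2126, 1395 and 1308 CPM with PRP lysate and 954, 653 and 547 CPM with MSC-CM (log2 fold change 1.17, SE 0.29, adjusted p = 0.038), highest in PRP lysate replicate 1. CCL14, a plasma chemokine, was lower instead, at 1.80, 5.16 and 5.53 CPM with PRP lysate and 29.4, 11.96 and 18.9 CPM with MSC-CM (log2 fold change -2.04, SE 0.39, adjusted p = 0.0085). CCL17 lost its call without MSC-CM replicate 3 (adjusted p 0.056, over all alternatives 1.4e-05 to 0.056), and without both first replicates. CCL5 lost its call without PRP lysate replicates 1, 2 or 3 or MSC-CM replicates 2 or 3 (adjusted p 0.058 to 0.19, over all alternatives 6.5e-05 to 0.19), and with edgeR, with RLE, with TMM, without the filter, with the 6 libraries alone and without both first replicates. CCL14 lost its call with the 6 libraries alone and without both first replicates (adjusted p over all alternatives 7.3e-05 to 0.073).

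**Figure D4:**
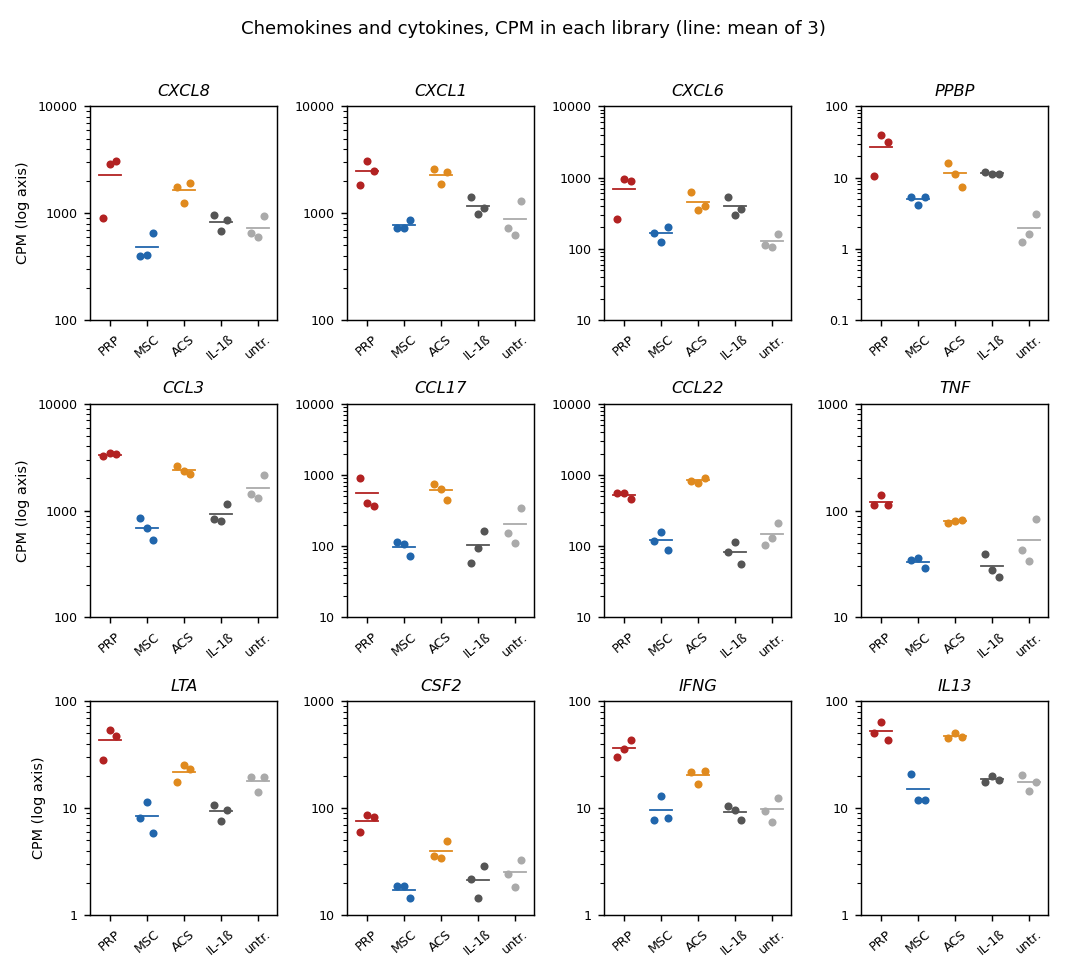
CPM on log axes in every library of the 5 conditions for 12 chemokines and cytokines, with 1 point per library and a line at the mean of 3. Untreated macrophages are marked untr., and all other conditions had IL-1ß. In each panel the 3 PRP lysate points lie above the 3 MSC-CM points, and CXCL8, CXCL6 and PPBP show PRP lysate replicate 1 below the other 2.

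Of 12 genes tested for the cytokines that were measurable in the supernatants and for prostaglandin E2 synthesis, 5 were higher and none lower, and the median was 1.06. Cytokines that were assayed but not measurable there, CSF2, CSF3, IL13 and IL17A among them, are not on this list. It was chosen with results of these samples known and is not independent evidence of its direction. TNF was at 112, 139 and 112 CPM with PRP lysate and 34.4, 36.1 and 28.8 CPM with MSC-CM (log2 fold change 1.84, SE 0.27, adjusted p = 0.0017). Its neighbour LTA, lymphotoxin alpha, was at 28.4, 54.5 and 47.7 CPM with PRP lysate and 8.13, 11.5 and 5.80 CPM with MSC-CM (log2 fold change 2.22, SE 0.28, adjusted p = 0.00057). The PRP lysate libraries lay above the MSC-CM libraries for both. IFNG, or interferon gamma, was at 30.1, 36.1 and 43.0 CPM with PRP lysate and 7.70, 12.9 and 8.07 CPM with MSC-CM (log2 fold change 1.84, SE 0.24, adjusted p = 0.00067). IL1B was at 6.53, 76.4 and 67.9 CPM with PRP lysate and 6.43, 6.61 and 10.1 CPM with MSC-CM and was not called (log2 fold change 1.998, SE 0.67, adjusted p = 0.14), with PRP lysate replicate 1 in the MSC-CM range, and without that library the log2 fold change was 3.09 (adjusted p = 0.00027, over all alternatives 1.6e-05 to 0.44). IL6 went the other way without a call, at 1.96, 12.5 and 13.9 CPM with PRP lysate and 23.6, 19.0 and 22.2 CPM with MSC-CM (log2 fold change -1.42, SE 0.51, adjusted p = 0.17). Without PRP lysate replicate 1 the log2 fold change of IL6 was -0.67. IL4 was at 9.30 to 11.04 CPM with PRP lysate and 3.39 to 6.93 CPM with MSC-CM (log2 fold change 0.94, SE 0.21, adjusted p = 0.023), under a 2-fold difference. IL10, an antiinflammatory cytokine, was at 7.63 to 11.1 CPM with PRP lysate and 7.51 to 10.8 CPM with MSC-CM (log2 fold change 0.01, SE 0.21, adjusted p = 0.99). CXCL10, PTGS2 and PTGES overlapped between the groups, with log2 fold changes of 0.37, -0.19 and 0.24 and adjusted p-values of 0.73, 0.96 and 0.89.

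Some cytokines outside that list were also called higher, whereas CCL14, given above, was called lower and IL1RN, given below, was not called. IL13, a T helper cytokine, was at 50.7, 64.7 and 43.3 CPM with PRP lysate and 21.0, 12.01 and 11.9 CPM with MSC-CM (log2 fold change 1.78, SE 0.22, adjusted p = 0.00053). IL31, a cytokine of itch, had the largest rise on the log2(CPM + 1) scale among called genes, at 1.21, 10.998 and 17.9 CPM with PRP lysate and 0.249, 0.154 and 0.468 CPM with MSC-CM (log2 fold change 2.63, SE 0.60, adjusted p = 0.025), and its PRP lysate libraries differed from each other by more than 10-fold. CSF2, or GM-CSF, was at 60.1, 85.9 and 82.2 CPM with PRP lysate and 18.5, 18.8 and 14.4 CPM with MSC-CM (log2 fold change 2.07, SE 0.27, adjusted p = 0.00067). CSF3, or G-CSF, was at 9.49, 52.9 and 46.6 CPM with PRP lysate and 5.96, 4.76 and 6.74 CPM with MSC-CM (log2 fold change 2.15, SE 0.54, adjusted p = 0.041). The latter showed the same split between replicate 1 and the others as IL31. IL17A, picked out after its values were seen, was at 5.13, 8.82 and 5.03 CPM with PRP lysate and 1.27, 1.47 and 0.889 CPM with MSC-CM (log2 fold change 1.70, SE 0.29, adjusted p = 0.0043). The summed T cell markers, CD3D, CD3E and 7 others, came to 931 to 1853 CPM with PRP lysate and to 1352 to 1451 CPM with MSC-CM, so that the cultures held transcripts of T cells. None of the 9 markers was called, 8 of them had a log2 fold change below 0, against 62.4% of all genes, and replicate 1 with PRP lysate had the highest sum. The part of T cells in these cytokine levels was not tested. IL31 lost its call without PRP lysate replicates 2 or 3 or MSC-CM replicates 1, 2 or 3 (adjusted p 0.081 to 0.11, over all alternatives 1.0e-09 to 0.15), and with the 6 libraries alone and with the gene span trend removed. CSF3 lost its call without PRP lysate replicates 2 or 3 or MSC-CM replicates 1, 2 or 3 (adjusted p 0.11 to 0.17, over all alternatives 1.8e-05 to 0.17), and without the filter, with the 6 libraries alone and with the gene span trend removed. Without PRP lysate replicate 1 the log2 fold changes of IL31 and CSF3 were 3.55 and 2.90.

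Within the IL-1 family, 1 of 14 genes tested was called. IL18BP, a secreted inhibitor of interleukin 18, was at 2589, 2719 and 2373 CPM with PRP lysate and 1302, 1237 and 1048 CPM with MSC-CM (log2 fold change 1.10, SE 0.21, adjusted p = 0.0081), and its call was lost without MSC-CM replicate 3 (adjusted p 0.054, over all alternatives 1.2e-05 to 0.054). IL1RN, the IL-1 receptor antagonist, was at 273 to 390.2 CPM with PRP lysate and 312 to 354 CPM with MSC-CM, with overlapping groups (log2 fold change 0.05, SE 0.19, adjusted p = 0.96). The list's median of 0.05 changed sign under 1 alternative.

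Among 40 TNF and NF-kB response genes tested, 6 were higher and 2 lower, with a median of 0.47 (0.37 to 0.56 over the alternatives). The higher members with the largest differences were CSF3, CSF2 and TNF, and the others were CD40, CD83 and DUSP5. The lower ones were VCAM1 and the mitochondrial superoxide dismutase SOD2, at 406, 535 and 365 CPM with PRP lysate and 962, 796 and 1622 CPM with MSC-CM (log2 fold change -1.32, SE 0.28, adjusted p = 0.018). CD40, the co-stimulatory receptor, was at 158, 190.4 and 156 CPM with PRP lysate and 75.2, 80.6 and 52.8 CPM with MSC-CM (log2 fold change 1.28, SE 0.18, adjusted p = 0.0015). It was the 1 higher gene of 15 tested for antigen presentation by MHC class II, whereas HLA-DMB, which loads peptides, was lower at 46.9, 61.2 and 49.6 CPM with PRP lysate and 133, 129.5 and 118 CPM with MSC-CM (log2 fold change -1.27, SE 0.15, adjusted p = 0.00042). Among 23 immediate early genes, 18 had a log2 fold change above 0, where 62.4% of all genes were below 0. Of the 23, 1 (4.35%) was called, beside 2.61% of all genes. This was ARC, at 36.4 to 49.4 CPM with PRP lysate and 18.1 to 22.5 CPM with MSC-CM (log2 fold change 1.01, SE 0.24, adjusted p = 0.033), and its call was kept in 9 of 19 alternatives. ARC lost its call without PRP lysate replicates 1, 2 or 3 or MSC-CM replicates 1, 2 or 3 (adjusted p 0.061 to 0.14, over all alternatives 0.0018 to 0.21), and with the 6 libraries alone, with weights per library, with the gene span trend removed and without both first replicates. SOD2 lost its call without PRP lysate replicate 3 or MSC-CM replicate 3 (adjusted p 0.079 to 0.099, over all alternatives 0.00029 to 0.099), and with the 6 libraries alone and without both first replicates. CD83 lost its call without MSC-CM replicates 1 or 3 (adjusted p 0.067 to 0.068, over all alternatives 1.4e-05 to 0.12), and with weights per library and without both first replicates.

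Of 21 genes tested on the growth factor list, 5 were higher and 1, a co-receptor, was lower, and the median was 0.52 (0.02 to 0.70 over the alternatives). The higher ones were ANGPTL4, CSF3, CSF2, INHBA, a subunit of activin A (log2 fold change 1.49, SE 0.37, adjusted p = 0.037), and VEGFC, a factor of lymphatic growth (log2 fold change 1.43, SE 0.37, adjusted p = 0.046), and the lower one was NRP1. ANGPTL4, an inhibitor of lipoprotein lipase, was at 240.4, 256 and 333 CPM with PRP lysate and 44.3, 54.2 and 59.7 CPM with MSC-CM (log2 fold change 2.37, SE 0.30, adjusted p = 0.00064). Outside the list, ESM1, a proteoglycan known from endothelium, was at 10.4, 16.4 and 20.6 CPM with PRP lysate and 2.20, 2.39 and 1.78 CPM with MSC-CM (log2 fold change 2.38, SE 0.27, adjusted p = 0.00032). For both, every PRP lysate library lay well above the MSC-CM range. In coagulation, F3, the tissue factor that starts clotting, was at 53.0, 149 and 124 CPM with PRP lysate and 20.7, 25.3 and 28.0 CPM with MSC-CM (log2 fold change 1.98, SE 0.33, adjusted p = 0.004), and TFPI, its inhibitor, was also higher at 13.8, 11.8 and 16.02 CPM with PRP lysate and 4.26, 4.11 and 5.27 CPM with MSC-CM (log2 fold change 1.42, SE 0.16, adjusted p = 0.00033). The plasminogen activator PLAU was lower at 40.3, 91.9 and 109 CPM with PRP lysate and 267, 198 and 215 CPM with MSC-CM (log2 fold change -1.59, SE 0.33, adjusted p = 0.014). The transglutaminase TGM2, an enzyme that links proteins, was lower at 449, 528 and 417 CPM with PRP lysate and 1596, 1429 and 1316 CPM with MSC-CM (log2 fold change -1.64, SE 0.18, adjusted p = 0.00029). With 17 tested, the list had both directions and a median of 0.07. TIMP3, an inhibitor of metalloproteinases, was at 105, 113 and 67.6 CPM with PRP lysate and 23.4, 29.8 and 31.0 CPM with MSC-CM (log2 fold change 1.70, SE 0.21, adjusted p = 0.00062). MMP1, an interstitial collagenase, was lower at 100.5, 197 and 209 CPM with PRP lysate and 399, 414 and 423 CPM with MSC-CM (log2 fold change -1.35, SE 0.27, adjusted p = 0.011). These were the called of 14 metalloproteinases and inhibitors tested. INHBA lost its call without PRP lysate replicates 2 or 3 or MSC-CM replicates 1 or 3 (adjusted p 0.073 to 0.15, over all alternatives 0.00034 to 0.15), and without the filter, with the 6 libraries alone and without both first replicates. VEGFC lost its call without PRP lysate replicates 2 or 3 or MSC-CM replicates 1, 2 or 3 (adjusted p 0.12 to 0.18, over all alternatives 2.6e-05 to 0.18), and with a pseudocount of 0.1, without the filter and with the 6 libraries alone. F3 lost its call with the 6 libraries alone (adjusted p over all alternatives 5.2e-09 to 0.056). PLAU lost its call without MSC-CM replicates 1 or 3 (adjusted p 0.06 to 0.068, over all alternatives 0.00021 to 0.085), and with the 6 libraries alone and without both first replicates. MMP1 lost its call without MSC-CM replicate 3 (adjusted p 0.053, over all alternatives 0.00016 to 0.069), and with the 6 libraries alone.

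Of 42 interferon stimulated genes tested, 39 had a log2 fold change below 0, against 62.4% of all genes, with a median of -0.44 (-0.61 to -0.34 over the alternatives), and 3 were called. OAS1, a sensor of double stranded RNA, was at 15.7, 21.6 and 29.7 CPM with PRP lysate and 50.7, 43.5 and 48.6 CPM with MSC-CM (log2 fold change -1.10, SE 0.20, adjusted p = 0.0076). IRF7, a transcription factor of the interferon response, was at 34.0, 31.2 and 42.8 CPM with PRP lysate and 77.5, 66.8 and 74.8 CPM with MSC-CM (log2 fold change -1.01, SE 0.20, adjusted p = 0.011). ZBP1, a sensor of nucleic acids, was at 52.7, 24.8 and 32.0 CPM with PRP lysate and 83.5, 89.3 and 74.2 CPM with MSC-CM (log2 fold change -1.22, SE 0.31, adjusted p = 0.045). The groups did not overlap for these, although the differences were close to 2-fold. IFIT2 and IFIT3 ranged more widely with PRP lysate, at 6.66 to 67.9 CPM and 14.9 to 47.2 CPM, and were not called (adjusted p = 0.49 and 0.063, and for IFIT3 0.022 with the replicate block). OAS1 lost its call without PRP lysate replicate 1 (log2 fold change -0.88), and with the 6 libraries alone, with weights per library and without both first replicates (adjusted p over all alternatives 0.00056 to 0.08). IRF7 lost its call without PRP lysate replicate 2 or MSC-CM replicate 3 (adjusted p 0.051 to 0.055, over all alternatives 0.0001 to 0.082) and, by size, without PRP lysate replicate 1 or MSC-CM replicate 1 (log2 fold change -0.98 to -0.97), and with DESeq2, with edgeR, with RLE, with TMM, with weights per library, with the gene span trend removed and without both first replicates. ZBP1 lost its call without PRP lysate replicates 2 or 3 or MSC-CM replicates 1, 2 or 3 (adjusted p 0.12 to 0.18, over all alternatives 5.6e-06 to 0.18), and with DESeq2, with edgeR, with RLE, with TMM, without the filter and with the 6 libraries alone.

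Of 28 receptors of innate recognition and inflammasome genes tested, 2 were lower and the median was -0.51. TLR1, which senses bacterial lipopeptides, was at 3.84, 2.46 and 4.12 CPM with PRP lysate and 9.08, 8.33 and 14.4 CPM with MSC-CM (log2 fold change -1.36, SE 0.25, adjusted p = 0.0067). TLR7, which senses single stranded RNA, was at 0.134, 0.502 and 0.458 CPM with PRP lysate and 1.404, 2.16 and 2.08 CPM with MSC-CM (log2 fold change -1.08, SE 0.24, adjusted p = 0.02), and missed the threshold with the replicate block (adjusted p = 0.056, over all alternatives 0.00025 to 0.1). Of 11 SLAM family receptors, which bind each other between leukocytes, 4 (36.4%) were lower, against 1.81% of all genes. Of the 11, 10 had a log2 fold change below 0, against 62.4% of all genes, and the median was -0.81. SLAMF8 was at 25.6, 51.2 and 42.2 CPM with PRP lysate and 122, 99.1 and 125 CPM with MSC-CM (log2 fold change -1.56, SE 0.22, adjusted p = 0.0013), and SLAMF9 at 0.537, 0.311 and 0.0704 CPM with PRP lysate and 5.44, 1.88 and 4.40 CPM with MSC-CM (log2 fold change -1.84, SE 0.37, adjusted p = 0.012). SLAMF6, better known from lymphocytes, was at 21.8, 29.4 and 31.9 CPM with PRP lysate and 58.6, 77.1 and 66.9 CPM with MSC-CM (log2 fold change -1.26, SE 0.25, adjusted p = 0.011), and CD244 at 0.618, 2.03 and 3.41 CPM with PRP lysate and 8.18, 5.25 and 15.4 CPM with MSC-CM (log2 fold change -1.81, SE 0.45, adjusted p = 0.039). The PRP lysate libraries were below the MSC-CM libraries for all 4 receptors. TLR1 lost its call with the 6 libraries alone (adjusted p over all alternatives 3.6e-06 to 0.068). TLR7 lost its call without MSC-CM replicates 2 or 3 (adjusted p 0.082 to 0.1, over all alternatives 0.00025 to 0.1) and, by size, without PRP lysate replicate 1 (log2 fold change -0.95), and with the 6 libraries alone and without both first replicates. SLAMF9 lost its call without PRP lysate replicate 3 or MSC-CM replicates 1 or 3 (adjusted p 0.057 to 0.073, over all alternatives 0.00025 to 0.073), and with the 6 libraries alone and without both first replicates. SLAMF6 lost its call without MSC-CM replicates 2 or 3 (adjusted p 0.052 to 0.053, over all alternatives 2.1e-06 to 0.057), and without both first replicates. CD244 lost its call without PRP lysate replicates 1 or 2 or MSC-CM replicates 1 or 3 (adjusted p 0.096 to 0.21, over all alternatives 0.0017 to 0.21), and without the filter, with the 6 libraries alone and without both first replicates.

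In metabolism the calls covered 7.14% of the fatty acid synthesis genes tested, 10.3% of those of glycolysis and hypoxia and 12.5% of the prostaglandin and leukotriene enzymes, beside 2.61% of all genes tested. SREBF1, the regulator of fatty acid synthesis, was at 143, 42.4 and 43.8 CPM with PRP lysate and 157, 172 and 162 CPM with MSC-CM (log2 fold change -1.33, SE 0.34, adjusted p = 0.047), with PRP lysate replicate 1 close to the MSC-CM range. Its call was lost with the replicate block (adjusted p = 0.051) and also without PRP lysate replicates 2 or 3 or MSC-CM replicates 1, 2 or 3 (adjusted p 0.12 to 0.19, over all alternatives 8.7e-07 to 0.24), and with DESeq2, with edgeR, with RLE, with TMM, without the filter, with the 6 libraries alone and with the gene span trend removed. It was the 1 called of 14 genes of fatty acid synthesis tested, whose median was -0.39. Of 39 glycolysis and hypoxia genes, 3 were lower and 1 higher, with a median of -0.14. DDIT4, at 18.7, 12.1 and 13.4 CPM with PRP lysate and 44.0, 47.5 and 48.7 CPM with MSC-CM, the mitochondrial subunit NDUFA4L2, at 0.887, 1.53 and 0.845 CPM with PRP lysate and 5.10, 3.68 and 4.21 CPM with MSC-CM, and PFKFB3, an activator of glycolysis at 192 to 234 CPM with PRP lysate and 372 to 539 CPM with MSC-CM, were the lower ones. HILPDA, a lipid droplet protein, was higher at 50.7 to 77.4 CPM with PRP lysate and 23.8 to 30.8 CPM with MSC-CM. Log2 fold changes were -1.36 ± 0.20 (SE, adjusted p = 0.0019) for NDUFA4L2, -1.10 ± 0.20 (SE, adjusted p = 0.0058) for PFKFB3 and 1.15 ± 0.18 (SE, adjusted p = 0.0022) for HILPDA. PFKFB3 lost its call without MSC-CM replicate 3 (log2 fold change -0.97), and without both first replicates (adjusted p over all alternatives 1.1e-05 to 0.051). HILPDA lost its call without PRP lysate replicate 2 (log2 fold change 0.99), and with the gene span trend removed (adjusted p over all alternatives 2.9e-06 to 0.11). Of 16 prostaglandin and leukotriene enzymes, the phospholipases PLA2G4A (log2 fold change -1.73, SE 0.44, adjusted p = 0.042) and PLA2G7 (log2 fold change -1.51, SE 0.24, adjusted p = 0.0031) were lower. PLA2G4A lost its call without PRP lysate replicates 1 or 2 or MSC-CM replicates 1, 2 or 3 (adjusted p 0.076 to 0.18, over all alternatives 0.00015 to 0.19), and without the filter, with the 6 libraries alone and without both first replicates. PLA2G7 lost its call with the 6 libraries alone (adjusted p over all alternatives 8.9e-07 to 0.051). Among integrins and adhesion genes, ITGA9 was lower at 4.73, 8.03 and 7.88 CPM with PRP lysate and 22.2, 26.6 and 39.8 CPM with MSC-CM (log2 fold change -1.94, SE 0.37, adjusted p = 0.0088), and ITGB5 higher as above, out of 35 tested. The call of ITGA9 was lost without MSC-CM replicate 3 (adjusted p 0.061, over all alternatives 9.7e-07 to 0.061).

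No member was called in the lists of the NRF2 antioxidant response (21 tested), cholesterol synthesis and uptake (25), the cell cycle and DNA replication (49) and cytosolic ribosomal proteins (63). Their medians were -0.23, 0.15, -0.11 and -0.14 in that order. MSMO1, a sterol enzyme, came closest among the second, at 162 to 188 CPM with PRP lysate and 120.2 to 134 CPM with MSC-CM (log2 fold change 0.46, SE 0.11, adjusted p = 0.031), with groups apart but well under a 2-fold difference, and HSD17B7 followed (adjusted p = 0.2). In the first, GCLM, a subunit of glutathione synthesis, had an adjusted p of 0.1. The cystine transporter SLC7A11 was at 0, 4.54 and 3.03 CPM with PRP lysate and 5.55, 13.7 and 24.9 CPM with MSC-CM (log2 fold change -2.27, adjusted p = 0.13) and passed with the replicate block (adjusted p = 0.0046, over all alternatives 0.00086 to 0.48). For E2F2 and NUSAP1 of the cell cycle the adjusted p-values were 0.18 and 0.21, and for RPS4X and RPL36 of the ribosome 0.47 and 0.65. Genes of the IL-4 and IL-13 response had 2 higher members, CCL17 and CCL22, and 2 lower ones, CTSC and TGM2, of 20 tested.

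**Figure D5:**
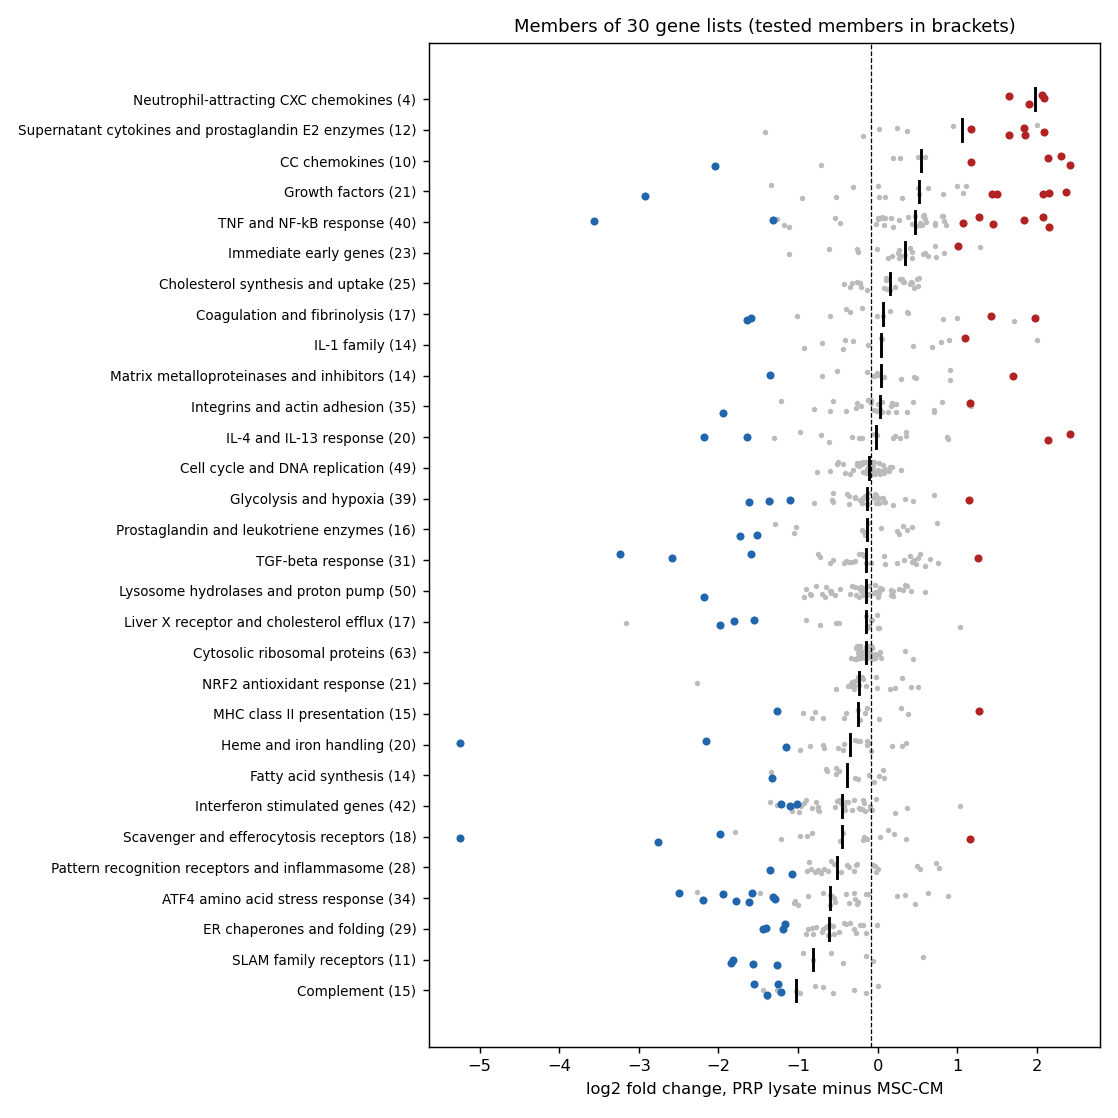
Log2 fold change (PRP lysate minus MSC-CM) of the tested members of 30 gene lists, with red and blue points for members called higher and lower, grey points for the others, a black bar at each list's median and a dashed line at the median of all genes (-0.09). The medians ran from -1.03 for complement to 1.98 for the neutrophil-attracting chemokines.

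The sums of markers of the cells that the products could carry over, platelets, stromal and erythroid cells, overlapped between the groups. Those of platelets summed to 18.9 to 46.9 CPM with PRP lysate and 33.0 to 40.5 CPM with MSC-CM, and those of stromal cells to 38.2 to 74.4 CPM and 35.4 to 41.1 CPM. PPBP and SELP made up most of the platelet sum, and ACTA2 and THY1 most of the stromal sum. Of 9 platelet markers listed, 5 stayed below 1 CPM in all 6 libraries, GP1BA, GP9, TUBB1, CLEC1B and P2RY12, and ITGA2B and TREML1 lay at 1.505 to 1.91 CPM and 1.51 to 2.50 CPM with PRP lysate. PPBP, which platelets hold in quantity, was higher as given above, and its source was not tested. P-selectin, or SELP, which platelets and endothelium share, was lower at 4.25, 3.20 and 3.59 CPM with PRP lysate and 29.5, 24.2 and 29.2 CPM with MSC-CM (log2 fold change -2.61, SE 0.28, adjusted p = 0.00023). Of the stromal markers COL1A1, LUM, DCN and POSTN stayed below 1 CPM, COL1A2, PDGFRB and NT5E were not tested for their low level, and THY1 and ACTA2 were not called (adjusted p = 0.81 and 0.86). The erythroid markers summed to 2.22 to 3.20 CPM with PRP lysate and 3.11 to 4.69 CPM with MSC-CM. HBA and KLF1 were not called, and HBA2, AHSP and EPOR stayed below 1 CPM.

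Transcripts of lymphocytes were present throughout. NK and cytotoxic markers summed to 504 to 1266 CPM with PRP lysate and 422 to 497 CPM with MSC-CM. GZMA, a granzyme, was at 184, 127 and 165 CPM with PRP lysate and 81.5, 83.2 and 72.1 CPM with MSC-CM (log2 fold change 0.98, SE 0.23, adjusted p = 0.028), just under a 2-fold difference, and EOMES at 6.12 to 7.34 CPM with PRP lysate and 11.7 to 14.2 CPM with MSC-CM (log2 fold change -0.88, SE 0.22, adjusted p = 0.038). NKG7 and GNLY were highest in PRP lysate replicate 1, at 354 and 443 CPM, and not called. B cell markers summed to 111 to 169 CPM and 193 to 236 CPM, and all 5 tested had a log2 fold change below 0 without a call, where 62.4% of all genes were below 0. Among dendritic cell markers FLT3 (log2 fold change -1.27, SE 0.20, adjusted p = 0.003) and LAMP3 (log2 fold change -1.39, SE 0.34, adjusted p = 0.038) were lower, CCR7 and BATF3 were not called, and CD1C, CLEC9A and XCR1 stayed below 1 CPM. FLT3 lost its call with the 6 libraries alone (adjusted p over all alternatives 1.2e-05 to 0.057). LAMP3 lost its call on leaving out any 1 of the 6 libraries (adjusted p 0.054 to 0.13, over all alternatives 0.00015 to 0.13). Of the endothelial markers PECAM1, which macrophages also carry, was lower at 48.3, 71.7 and 71.3 CPM with PRP lysate and 294, 172 and 392 CPM with MSC-CM (log2 fold change -2.09, SE 0.34, adjusted p = 0.0036), whereas CDH5, KDR and TEK were not called and VWF, ESAM and CLDN5 stayed below 1 CPM. CSF3R, the 1 neutrophil marker tested, was not called (adjusted p = 0.097). The part of any of these cells in the differences was not tested.

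The levels with IL-1ß alone, in libraries outside the 2 groups compared, were mostly nearer to those of MSC-CM. Replicate 3 with IL-1ß alone stood apart, however. On the first principal component of all 15 libraries, with 55.4% of the variance, it lay at -103, and the next, PRP lysate replicate 1, at -51.7. Its slope on gene span was -0.178. This library entered the means with IL-1ß alone given here, both comparisons that follow and the shared spread. Of the 93 higher genes, 91 had a mean with IL-1ß alone nearer to the MSC-CM mean than to the PRP lysate mean on the log2(CPM + 1) scale, and so did 206 of the 211 lower genes. CD163 was at 685, 638 and 365 CPM with IL-1ß alone, MERTK at 61.3, 58.1 and 41.1 CPM and CCL17 at 57.5, 93.9 and 164 CPM, values among or near those with MSC-CM. The 2 higher genes nearer to PRP lysate were CSF3, at 34.7, 16.1 and 22.7 CPM, and CXCL6, at 526, 296 and 358 CPM with IL-1ß alone. In untreated macrophages 44 of the higher genes and 45 of the lower genes were nearer to PRP lysate.

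IL-1ß against untreated macrophages shared no library with PRP lysate against MSC-CM. Both of its groups are described as technical replicates by the study, so they carry no spread between animals or products of their own, and the residual of the test was shared with the libraries of the 3 OT. There 16 genes were higher with IL-1ß and 18 lower, 0.138% and 0.155% of the genes tested. Of the 16, 12 (75.0%) were lower with PRP lysate than with MSC-CM, which made up 5.69% of the 211 lower genes. They were ASNS, CEBPD, CHAC1, DDIT4, EIF4EBP1, FLT3, GPR84, GPT2, HERPUD1, NDUFA4L2, PSAT1 and TRIB3. The transcription factor CEBPD, for instance, was at 10.3, 8.33 and 8.78 CPM in untreated macrophages, 49.7, 49.98 and 42.6 CPM with IL-1ß alone, 50.1, 30.3 and 45.5 CPM with MSC-CM and 8.38, 5.59 and 6.02 CPM with PRP lysate (log2 fold change -2.47, SE 0.20, adjusted p = 2.5e-05). With PRP lysate it was thus at or below the untreated level. GPT2 was at 0.945, 0.897 and 1.35 CPM untreated and 6.81, 9.01 and 6.92 CPM with IL-1ß alone, and DDIT4 at 11.8, 10.6 and 11.3 CPM and 49.0, 56.2 and 59.0 CPM, next to the values for PRP lysate and MSC-CM given above. Of the 18 genes lower with IL-1ß, 7 (38.9%) were higher with PRP lysate than with MSC-CM, 7.53% of the higher genes, namely ARC, EPHA2, ESM1, OCSTAMP, ST8SIA5, TIMP3 and VGF. PPBP was the 1 gene higher in both comparisons, and 0 genes were lower in both. OCSTAMP, which osteoclasts need to fuse, was at 304, 250.1 and 397 CPM untreated, 145, 119.6 and 162 CPM with IL-1ß alone, 162, 170.5 and 120.0 CPM with MSC-CM and 359, 394 and 349 CPM with PRP lysate (log2 fold change 1.29, SE 0.19, adjusted p = 0.002). In PRP lysate against MSC-CM, EIF4EBP1 lost its call without PRP lysate replicates 2 or 3 or MSC-CM replicates 1 or 3 (adjusted p 0.055 to 0.078, over all alternatives 2.1e-05 to 0.078), and with DESeq2, with edgeR, with RLE, with TMM and with the 6 libraries alone. GPR84 lost its call without PRP lysate replicate 2 or MSC-CM replicates 1 or 3 (adjusted p 0.054 to 0.11, over all alternatives 0.0017 to 0.11), and with the 6 libraries alone, with the gene span trend removed and without both first replicates. ST8SIA5 lost its call without PRP lysate replicates 2 or 3 or MSC-CM replicates 1 or 3 (adjusted p 0.057 to 0.11, over all alternatives 3.8e-05 to 0.11), and with the 6 libraries alone.

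ACS, a serum product, was set against IL-1ß alone, again without a shared library. There 143 genes were higher and 114 lower, 1.23% and 0.98% of the genes tested. Of the 93 genes higher with PRP lysate than with MSC-CM, 52 (55.9%) were higher with ACS than with IL-1ß alone, which made up 36.4% of the genes higher with ACS. Of the 211 lower genes, 83 (39.3%) were lower with ACS, or 72.8% of the genes lower with ACS. In both directions 0 genes were called with opposite signs. The median ACS minus IL-1ß log2 fold change was 1.15 over the higher genes, -0.98 over the lower genes and 0.13 over all genes. CD163 lay at 92.0, 58.6 and 43.2 CPM with ACS, between PRP lysate and MSC-CM, CCL22 at 836, 781 and 901 CPM, above PRP lysate, and TGM2 at 1944, 1975 and 1317 CPM, with MSC-CM. MMP1, lower with PRP lysate than with MSC-CM, was at 676, 877 and 847 CPM with ACS, above both.

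Called genes without a symbol numbered 47, 12 higher and 35 lower, and the gene table used here gave no name for their identifiers. Of these, the 2 largest falls on the log2(CPM + 1) scale were neighbours on chromosome 12 of EquCab3.0. ENSECAG00000017042 (23505138 to 23516845) was at 0.564, 1.004 and 0.317 CPM with PRP lysate and 30.6, 20.7 and 44.2 CPM with MSC-CM (log2 fold change -4.29, SE 0.34, adjusted p = 2.5e-05). ENSECAG00000038794 (23531793 to 23697961) was at 0.430, 1.34 and 0.845 CPM with PRP lysate and 20.6, 14.9 and 36.8 CPM with MSC-CM (log2 fold change -3.68, SE 0.32, adjusted p = 4.8e-05). The PRP lysate libraries held close to 1 CPM or less of both. On chromosome 11, ENSECAG00000022992 (37489249 to 37521561), whose span holds that of CCL3 (37504091 to 37514732), was higher at 658, 586 and 594 CPM with PRP lysate and 163, 115 and 95.0 CPM with MSC-CM (log2 fold change 2.33, SE 0.24, adjusted p = 0.00018). Reads in the shared span cannot be assigned to either gene from the CPM. Promoter sequences of the called genes were not analysed here.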

How the data were processed

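The members, the gene lists and the rule for named genes were chosen with earlier results of these data known. Per the study's methods, the authors enriched polyadenylated RNA, sequenced 150 base read pairs, and in Partek Flow trimmed reads with cutadapt, mapped them to EquCab3.0 (STAR 2.7.3), and took gene counts by HTSeq from the Ensembl gene models. The strand setting is not given in the sources used here, so values of overlapping, antisense and closely related genes are uncertain. The deposited values are CPM for 16932 genes, made by the authors from those counts. All columns matched the labels.

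Per library, the CPM worth of 1 read was found from its low values and gave back the reads (99.7% of values whole within 0.1 read). The main test was limma, with its variance trend, of log2(CPM + 1) in all 15 libraries, in 1 model of 5 conditions and without pairing. Genes entered if their CPM averaged 1 or more across the 15. Genes were called at an adjusted p (Benjamini-Hochberg over all genes tested) of at most 0.05 and a fold of at least 2. Log2(CPM + 1) understates the fold of low genes. DESeq2 and edgeR on the recovered reads, other scalings, filters and subsets of libraries were alternatives. Lists are described by counts and medians, with no test. The scripts were tested on simulated data.

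The labels number the libraries of both groups 1 to 3. Deviations from the group means, over 11628 genes, correlated between same-numbered libraries at 0.63, 0.26 and 0.42. PRP lysate 2 with MSC-CM 3 gave 0.47 and 3 with 2 gave 0.39, both above the value of 2 with 2, and the remaining pairs lay below 0. All same-numbered values exceeded 0.1, but they cannot show that the numbers pair the libraries. Deviations within a group sum to 0, and both first replicates lay lowest on the first component of the 6. The replicate block on the 6 libraries treats the numbers as pairs, and it is given as an alternative where it changes a call. Per the methods the same horses gave both products, but no label says that a number marks a horse.

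Named genes were the 12 largest rises and 12 largest falls among called genes with groups apart, up to 4 called members of each of 30 lists by size of the log2 fold change (in a list with none called, the 2 with the smallest p), the supernatant cytokines and genes the study names for other comparisons, and the markers of 10 cell type lists. Genes without a symbol were limited to 2 rises and 2 falls, of which ENSECAG00000031387 took the place of a larger rise for the name the study gives it. CEBPD, OCSTAMP, IL17A, ABCA1, STAB1, C1QB, IFIT2, IFIT3, INHBA, VEGFC, CD83, DUSP5, SOD2, the members of overlaps, and all genes of the closing section were picked after their values were seen. Versions were Python 3.11.15, R 4.3.3, DESeq2 1.42.0, edgeR 4.0.16 and limma 3.58.1.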

Additional observations from a re-analysis of the deposited data

How the results depend on the processing

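The main count of 304 genes (93 higher, 211 lower) came to 484 with DESeq2 (201 and 283), 591 with array weights (218 and 373), 167 with the 6 libraries only (55 and 112) and 491 without a fold threshold (168 and 323), and the cause was not tested apart from the dropped threshold and the fewer libraries. It was 307 with edgeR, 302 with RLE size factors (115 and 187), 298 with TMM factors, 315 with a pseudocount of 0.1, 265 without a filter, 305 with the filter over the 6 libraries, 324 with the gene span trend removed and 296 with both first replicates left out. The replicate block on the 6 libraries, which treats the numbers as pairs, gave 406 genes (113 and 293), against 167 in the same libraries without it. It kept 90 of the higher and 202 of the lower calls. Of the genes named by rule it changed the calls of SREBF1, TLR7, SLC7A11, CSF1R and LYZ and no other. Leaving out 1 library gave 171 (without MSC-CM replicate 3) to 398 genes (without PRP lysate replicate 1). Of the called genes 41 higher and 112 lower ones kept their call without any 1 of the 6 libraries, and under 19 alternatives 0 changed sign. The distance excess was 17.6 log2 units with a pseudocount of 0.1 and 14.4 with RLE factors, 4.46 to 23.0 without 1 library, and 28.2 with both first replicates left out. Below 1 CPM, under 28.4 reads in the shallowest library, counting limits what a difference can show.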

Other observations

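The called genes given here were picked after their values were seen and form no list. Some were lower with PRP lysate. The lysosomal protease LGMN, or legumain, was at 541, 761 and 836 CPM with PRP lysate and 2626, 1941 and 3205 CPM with MSC-CM (log2 fold change -1.85, SE 0.25, adjusted p = 0.00097). The organic anion transporter SLCO2B1 was at 41.9, 89.6 and 95.7 CPM with PRP lysate and 341, 341 and 363 CPM with MSC-CM (log2 fold change -2.27, SE 0.32, adjusted p = 0.0013). The groups lay far apart for both. AOAH, which inactivates endotoxin, was at 65.8 to 84.8 CPM with PRP lysate and 191 to 320.2 CPM with MSC-CM (log2 fold change -1.69, SE 0.22, adjusted p = 0.00067). The membrane proteins TMEM176A and TMEM176B, neighbours on chromosome 4, had log2 fold changes of -1.79 ± 0.19 (SE, adjusted p = 0.00023) and -2.71 ± 0.19 (SE, adjusted p = 1.3e-05), and the neighbouring ribonucleases RNASE4 and RNASE6 had values of -1.60 ± 0.27 (SE, adjusted p = 0.0041) and -2.51 ± 0.37 (SE, adjusted p = 0.0017). The inhibitory collagen receptor LAIR1 was at 1.77 to 4.28 CPM with PRP lysate and 11.5 to 21.6 CPM with MSC-CM (log2 fold change -2.13, SE 0.29, adjusted p = 0.00095), and CD4, which horse macrophages may share with T cells, at 194 to 218 CPM with PRP lysate and 399 to 535 CPM with MSC-CM (log2 fold change -1.15, SE 0.18, adjusted p = 0.0029).

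On the other side, IRF8, a transcription factor of monocytes and dendritic cells, was higher at 697, 698 and 517 CPM with PRP lysate and 259.8, 335 and 294 CPM with MSC-CM (log2 fold change 1.10, SE 0.20, adjusted p = 0.0065). ECE1, which activates endothelin, was at 422, 804 and 697 CPM with PRP lysate and 209.6, 265 and 206 CPM with MSC-CM (log2 fold change 1.45, SE 0.26, adjusted p = 0.0059). DUSP5, a phosphatase of ERK from the TNF and NF-kB list, was at 105 to 119 CPM with PRP lysate and 36.4 to 49.7 CPM with MSC-CM (log2 fold change 1.44, SE 0.20, adjusted p = 0.0013). All PRP lysate libraries exceeded the MSC-CM libraries for these. IRF8 lost its call without both first replicates (adjusted p over all alternatives 8.0e-07 to 0.069). RNASE4 lost its call with the 6 libraries alone (adjusted p over all alternatives 1.1e-05 to 0.078). EPHA2, an ephrin receptor, was at 50.7 to 59.2 CPM with PRP lysate and 15.7 to 25.2 CPM with MSC-CM (log2 fold change 1.46, SE 0.21, adjusted p = 0.0014). TSLP, an epithelial cytokine, was at 1.02 to 3.08 CPM with PRP lysate and 0.113 to 0.398 CPM with MSC-CM (log2 fold change 1.23, SE 0.24, adjusted p = 0.0098), and by size lost its call without PRP lysate replicate 2 (log2 fold change 0.97) and, with the replicate block, missed the threshold (adjusted p = 0.059, over all alternatives 3.8e-06 to 0.11).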
